A study of Homo sapiens with 3 samples.

Results

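The solute carrier (SLC) genes encode membrane transporters, and 45 of them were assigned a peak in chromatin immunoprecipitation with sequencing (ChIP-seq) of wild-type MECOM. They were taken from the annotated peak list as every gene whose symbol begins with SLC and a digit, with antisense transcripts left out. These 45 genes carried 47 of the 3462 peaks in the list. The cells were HEK293T, a human embryonic kidney line, in 3 groups of 1 library each: with the retroviral vector pMYS-IG, with MECOM-WT and with MECOM-R750W. The series' design text calls the cells transduced and the protocol calls them transfected. MECOM was introduced with an AM tag, a short peptide, and the antibody against that tag, not one against MECOM, was used to precipitate chromatin. The list used here is tied to the wild-type library by its name alone. No peaks of the other groups were examined, so no value has a replicate, nothing here shows what the tag antibody precipitates without MECOM, and the identity of the cells could not be checked from a peak list.

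Solute carriers move sugars, amino acids, nucleotides, vitamins, metals and other ions across the plasma membrane and the membranes of lysosomes, the Golgi apparatus and mitochondria. Most use ion gradients, exchange or facilitated diffusion, and transport is not driven by their own ATP hydrolysis as in the ABC transporters. They are numbered by family, each family sharing sequence and often substrate. In the kidney, many of them carry out reabsorption and secretion along the tubule. MECOM, also known as EVI1, is a zinc finger transcription factor with 2 separate sets of zinc fingers, the first of which binds a GATA-like sequence.

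Of 385 protein-coding SLC genes in RefSeq, 45 were assigned a peak, a share of 11.7% (exact binomial 95% interval 8.65 to 15.3). Among all 20052 protein-coding genes, 1993 were assigned a peak, a background of 9.94%. Long genes carried peaks more often, and SLC genes had a median length of 35 kb against 24.1 kb for all protein-coding genes. At the shares of protein-coding genes in the same 10 length classes, 41.4 SLC genes (10.7%) would have had a peak. The SLC share was thus near the background. Among peaks with a −log10 q of at least 5, a stricter limit, the shares were 4.94% of SLC genes and 5.52% of all protein-coding genes. A further pair of genes that RefSeq now names SLC appeared in the list under older symbols, SLC35D4 (as TMEM241, 5.71-fold) and SLC61A1 (as MFSD5, 5.93-fold), and stood outside the rule. The SLC shares above leave them out, whereas the shares of all protein-coding genes, matched by Ensembl ID first, count such genes. The small gap at the stricter limit is therefore not like for like. None of the 108 SLC pseudogenes and non-coding RNA genes in RefSeq was assigned a peak, antisense genes apart, of which 1 had a peak (SLC12A9-AS1, 5.34-fold). The share over all pseudogenes and non-coding RNA genes was not determined, so this count has no background and is not read as a trait of SLC genes.

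The enrichment of SLC peaks was ordinary for the list. Fold enrichment, the authors' own value for each peak, compares the fragments at a peak with the local background. Its median was 4.68 over the 47 SLC peaks, with quartiles of 3.76 and 5.10, against 4.82 over all peaks. Fragments at an SLC peak ran from 11 to 29 with a median of 18, the same median as in the whole list. They were solved from the deposited values and not counted over the width of the peak. The highest SLC peak, at SLC15A4, reached 7.82-fold, and 119 peaks of the list were higher. No SLC peak passed 10-fold, against 26 peaks in the list. SLC peaks had lower −log10 q values, with a median of 4.47 against 5.33 over all peaks. Of the SLC peaks, 19 (40.4%, exact interval 26.4 to 55.7) had a −log10 q of at least 5, against 54.1% of the peaks of other protein-coding genes.

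**Figure D1:**
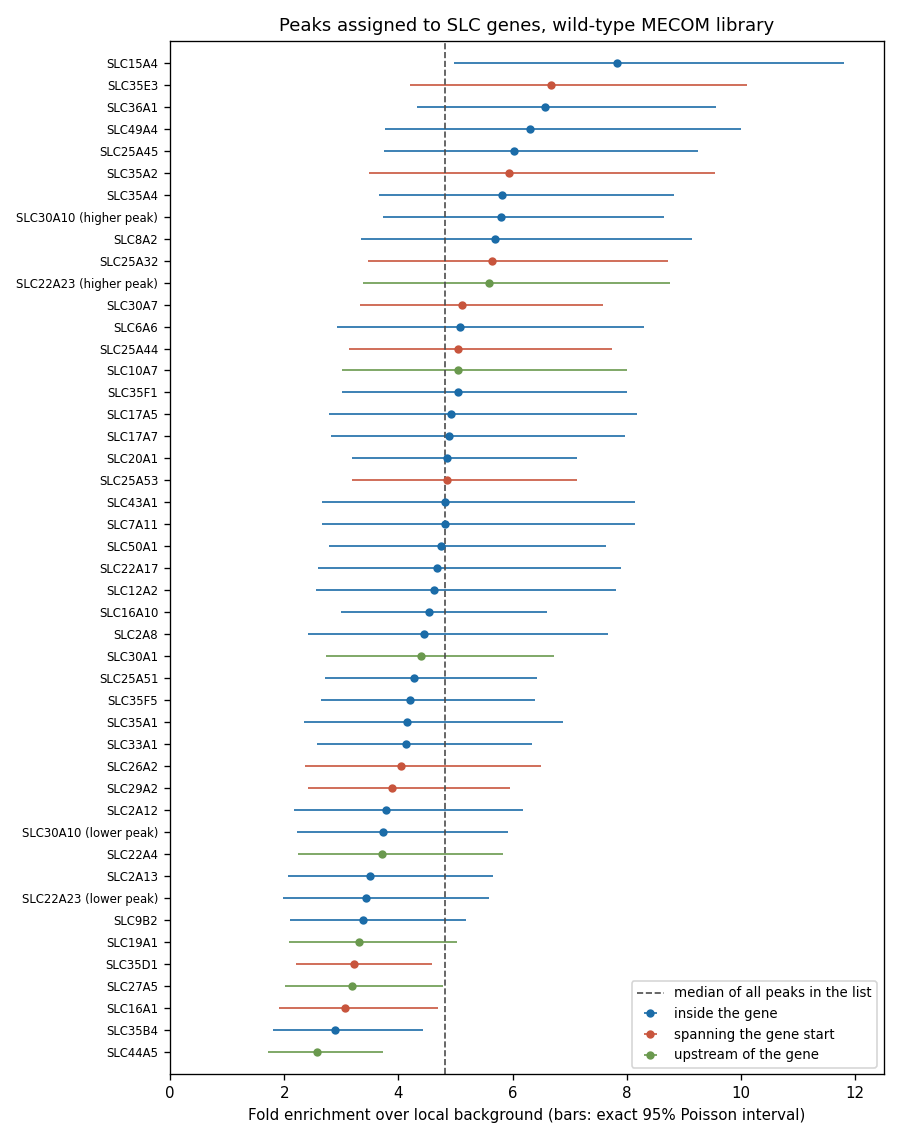
Fold enrichment (horizontal axis) of 46 of the 47 SLC peaks (rows, highest first), coloured by place relative to the gene, with exact 95% Poisson intervals of the fragments and the median of all peaks (4.82) as a dashed line. Only the interval of SLC15A4 lies wholly to the right of the line, and those of SLC35D1, SLC27A5, SLC16A1, SLC35B4 and SLC44A5 lie wholly to the left.

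Counting error left most of these peaks unranked, since every pair of neighbours in the order overlapped. The interval of SLC15A4 (4.98 to 11.8) lay wholly above the median of the list, as in 5.29% of all peaks with a gene, and wholly above the intervals of 5 SLC peaks. Those 5 belonged to SLC35D1, SLC27A5, SLC16A1, SLC35B4 and SLC44A5, and lay wholly below the median. They were 10.6% of SLC peaks (exact interval 3.55 to 23.1), an interval that includes the 4.56% of all peaks with a gene. Background is a term of fold, by which the peaks were ordered, so a lower background at the top is partly built in. Between the ends of the order, background differed more than fragments did. The 10 highest SLC peaks had a median of 19.5 fragments over a background of 2.23, and the 10 lowest had 19 fragments over a background of 5.44. The part of background in the order of the peaks was not tested. None of the intervals includes variation between cultures or in the background.

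**Figure D2:**
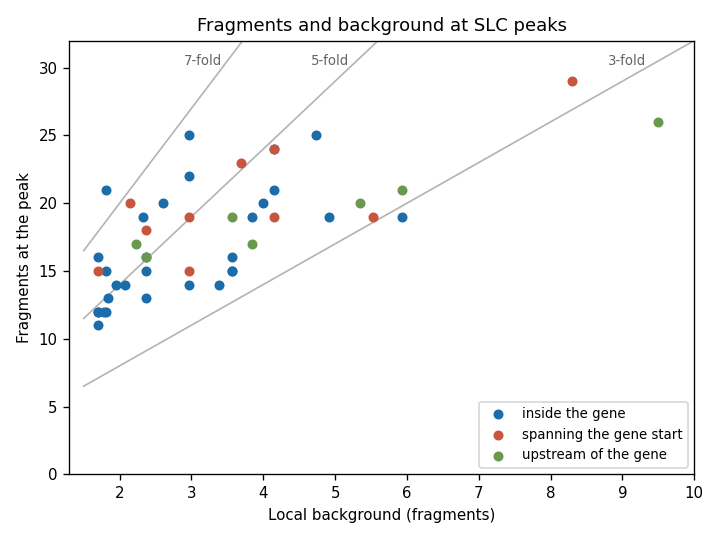
Fragments at the peak (vertical axis) against local background in fragments (horizontal axis) for the 47 SLC peaks, coloured by place, with grey lines at 3, 5 and 7-fold enrichment. Points at high background, such as SLC35D1 (29 fragments over 8.30) and SLC44A5 (26 over 9.49), fall near the 3-fold line although their fragment values are among the highest.

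Every one of the 10 substrate classes, set by family number, held at least 1 gene with a peak, and peaks fell in 25 of 57 families. Transporters of nucleosides and nucleotide sugars counted most, with 9 of 38 genes (23.7%), against the background of 9.94%. Fatty acid and acetyl-CoA transporters had 2 of 8 (25%), vitamin, choline and haem transporters 3 of 20 (15.0%), and carriers of carboxylates, bile acids and organic ions 6 of 49 (12.2%). Sugar transporters had 4 of 36 (11.1%), mitochondrial carriers 5 of 48 (10.4%) and inorganic ion transporters 6 of 58 (10.3%). Metal ion transporters had 3 of 32 (9.38%), neurotransmitter transporters 3 of 33 (9.09%) and amino acid and peptide transporters 4 of 50 (8%). The 13 genes of other families had none by the listed symbols, although SLC61A1, listed as MFSD5 (5.93-fold), is among them. SLC35D4, listed as TMEM241 (5.71-fold), is likewise among the 38 nucleoside and nucleotide sugar genes but not among the 9. The background of 9.94% was matched by Ensembl ID first and counts such genes. Among other membrane proteins, 6 of 45 ABC transporter genes (13.3%), 8 of 96 potassium channel genes (8.33%), 1 of 12 SLCO genes (SLCO4C1, 7.79-fold) and 1 of 14 aquaporin genes (AQP4, 6.84-fold) were assigned a peak. At a −log10 q of at least 5, 5.52% of all protein-coding genes had a peak. There the count was 4 of 38 genes for nucleoside and nucleotide sugar transporters and 5 of 48 for mitochondrial carriers. It was 0 for the fatty acid, neurotransmitter and sugar classes, of 8, 33 and 36 genes. The classes are small, and none of these shares was tested against another.

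**Figure D3:**
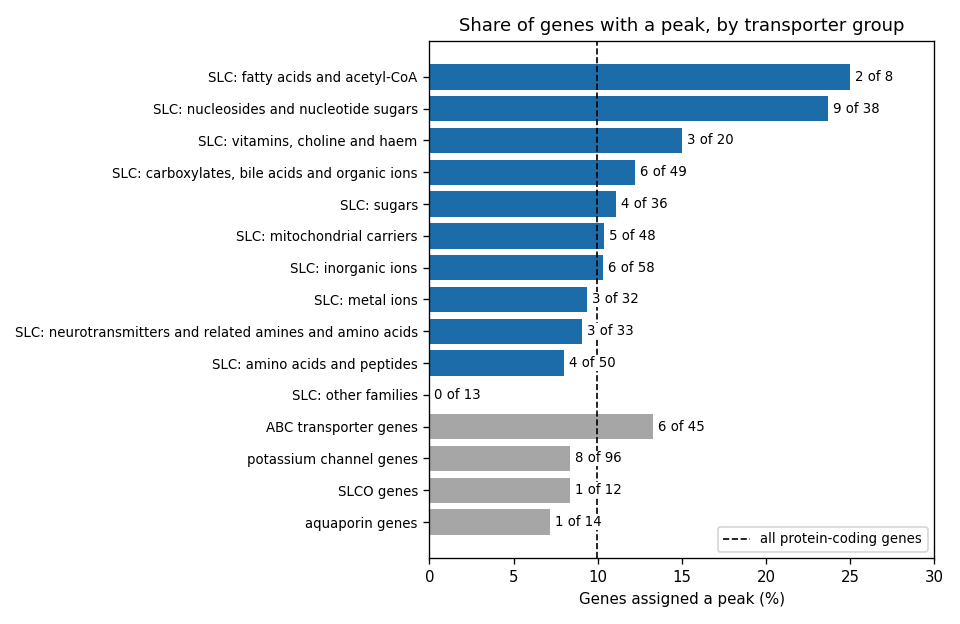
Share of genes assigned a peak (horizontal axis, percent) in each SLC substrate class (blue) and in 4 other groups of membrane proteins (grey), with the count beside each bar and the share of all protein-coding genes (9.94%) as a dashed line. Nucleoside and nucleotide sugar transporters stand at 9 of 38, and most other classes lie near the line. SLC35D4 and SLC61A1, whose peaks are listed under older symbols, count as genes without a peak in the blue bars.

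The nucleotide sugar family SLC35 alone supplied 8 of its 31 genes (25.8%). Members with a known substrate mostly carry activated sugars into the Golgi apparatus and endoplasmic reticulum for glycosylation. Genes were classed by family number, not by a substrate known for each. SLC35E3, a member without a settled substrate, had the second highest SLC peak, on chromosome 12 from 68746023 to 68746379 across the gene start (6.67-fold, 4.20 to 10.1, 20 fragments). SLC35A2, the UDP-galactose transporter, had a peak across its start on the X chromosome from 48911413 to 48912024 (5.93-fold, 3.48 to 9.55, 15 fragments). The peak of SLC35A4 lay within the gene on chromosome 5 from 140564828 to 140565396 (5.82-fold, 3.66 to 8.83). SLC35D1, which carries UDP-glucuronic acid, had a peak across its start on chromosome 1 from 67053506 to 67054373 with the most fragments of any SLC peak, 29, over a background of 8.30 (3.23-fold, 2.2 to 4.59). The peak of SLC35A1, the CMP-sialic acid transporter, reached 4.15-fold, and that of SLC35B4, a UDP-xylose transporter, 2.89-fold (1.80 to 4.43). SLC35F1 (5.04-fold) and SLC35F5 (4.21-fold) were the other members counted. SLC35D4, also among the 31 genes, had a peak across its start under the older symbol TMEM241 (5.71-fold, 3.77 to 8.32). It stood outside the rule and is not among the 8. The class also held SLC29A2, an equilibrative nucleoside transporter, whose peak covered its start on chromosome 11 from 66372034 to 66372861 (3.88-fold, 2.42 to 5.96). Among the 9 genes counted in this class, fold thus ran from 2.89 to 6.67, and all 9 intervals overlapped. Promoter windows are printed from RefSeq (GRCh38.p14) on the strand of the gene, from 250 bp before a start to 50 bp after it, for genes whose peak lay on the window or beside it. Capitals mark matches on either strand to any of 10 short motifs, those present being the E-box CACGTG, the ETS core CCGGAA, the GC box GGGCGG and the CCAAT box CCAAT. SLC35E3 (chr12:68745926-68746225, plus strand) is shown for the E-box that begins 47 bp before the start, within its peak. SLC35A2 (chrX:48911597-48911896, minus strand) is shown since its peak covered all 300 bp, although the window holds none of the motifs.
SLC35E3: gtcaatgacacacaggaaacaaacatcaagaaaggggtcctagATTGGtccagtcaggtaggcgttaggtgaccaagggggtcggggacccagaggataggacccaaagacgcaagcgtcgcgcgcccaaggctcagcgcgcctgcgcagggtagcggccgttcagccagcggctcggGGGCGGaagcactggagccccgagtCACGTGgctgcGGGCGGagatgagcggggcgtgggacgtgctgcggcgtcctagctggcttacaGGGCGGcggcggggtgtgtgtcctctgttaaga
SLC35A2: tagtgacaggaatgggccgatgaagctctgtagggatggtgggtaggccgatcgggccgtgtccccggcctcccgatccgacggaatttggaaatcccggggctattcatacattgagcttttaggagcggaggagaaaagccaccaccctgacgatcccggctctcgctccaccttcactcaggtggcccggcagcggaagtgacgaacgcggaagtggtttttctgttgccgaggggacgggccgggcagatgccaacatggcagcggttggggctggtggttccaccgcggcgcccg

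Mitochondrial carriers of the SLC25 family had 5 peaks, each with a −log10 q of at least 5. SLC25A45 led them (chromosome 11, from 65382225 to 65382564, 6.03-fold, 3.75 to 9.24). SLC25A32, linked to folate and flavin import, had the widest SLC peak, 1073 bp across its start (5.64-fold, 3.46 to 8.73). SLC25A44, a carrier of branched-chain amino acids, had a 5.04-fold peak (3.14 to 7.74) over its start on chromosome 1, from 156193916 to 156194617. SLC25A53, an orphan carrier on the X chromosome, had a start-spanning peak from 104156585 to 104157066 (4.85-fold, 3.18 to 7.13). SLC25A51, the mitochondrial NAD+ carrier, had a peak of 893 bp within the gene (4.27-fold, 2.72 to 6.43). All 5 intervals overlapped. The window of SLC25A51 (chr9:37904078-37904377, minus strand) has an E-box 59 bp before the start and that of SLC25A44 (chr1:156193854-156194153, plus strand) a pair of ETS cores just before it, all of them under the peak.
SLC25A51: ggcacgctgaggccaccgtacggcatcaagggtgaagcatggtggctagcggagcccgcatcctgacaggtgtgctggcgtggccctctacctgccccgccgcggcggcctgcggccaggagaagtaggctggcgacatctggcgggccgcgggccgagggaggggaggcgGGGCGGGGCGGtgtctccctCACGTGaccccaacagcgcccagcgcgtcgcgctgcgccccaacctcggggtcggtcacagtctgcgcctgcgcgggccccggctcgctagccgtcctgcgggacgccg
SLC25A44: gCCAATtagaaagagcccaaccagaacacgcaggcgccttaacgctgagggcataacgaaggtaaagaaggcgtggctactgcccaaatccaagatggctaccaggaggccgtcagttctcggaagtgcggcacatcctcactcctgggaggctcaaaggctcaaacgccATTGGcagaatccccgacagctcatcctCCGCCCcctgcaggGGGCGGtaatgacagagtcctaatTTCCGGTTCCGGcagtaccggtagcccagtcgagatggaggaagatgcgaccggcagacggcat

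Amino acid transporters gave 2 of the 3 highest SLC peaks. SLC15A4, a proton-coupled transporter of histidine and peptides in lysosomes and endosomes, stood first, on chromosome 12 from 128823140 to 128823605 within the gene (7.82-fold, 21 fragments over 1.81). SLC36A1, a lysosomal proton-coupled amino acid transporter, came next after SLC35E3, on chromosome 5 from 151447598 to 151448023 (6.56-fold, 4.33 to 9.56, 25 fragments). SLC7A11, the cystine and glutamate exchanger that supplies glutathione synthesis, and SLC43A1, a carrier of large neutral amino acids, had equal values (4.82-fold, 2.67 to 8.14, 12 fragments). Both rested on the lowest background of the list, 1.70 fragments. In the neurotransmitter families, the taurine transporter SLC6A6 reached 5.08-fold (2.93 to 8.30) on chromosome 3 from 14439680 to 14440048, SLC17A5, which exports sialic acid from lysosomes, 4.92-fold and the vesicular glutamate transporter SLC17A7 4.88-fold. None of these 3 had a −log10 q of 5. The window at the inner start of SLC36A1 (chr5:151447353-151447652, plus strand) has E-boxes 43 and 8 bp before the start. The first lies outside the peak and the second across its edge. An ETS core after the start lies inside the peak.
SLC36A1: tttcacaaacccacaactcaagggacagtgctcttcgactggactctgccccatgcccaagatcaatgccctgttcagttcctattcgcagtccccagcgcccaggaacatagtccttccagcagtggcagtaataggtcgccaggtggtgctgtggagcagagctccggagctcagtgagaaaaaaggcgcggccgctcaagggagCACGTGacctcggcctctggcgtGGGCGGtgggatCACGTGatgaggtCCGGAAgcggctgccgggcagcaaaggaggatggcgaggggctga

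Zinc and manganese transporters of the SLC30 family made up all 3 metal ion genes. SLC30A10, a manganese exporter, had 2 peaks on chromosome 1, from 219927805 to 219928220 (5.80-fold, 3.73 to 8.65) and from 219928711 to 219928982 (3.73-fold, 2.23 to 5.92), 490 bp apart. SLC30A7, which loads zinc into the Golgi apparatus, had a peak across its start from 100896065 to 100896525 of the same chromosome (5.12-fold, 3.33 to 7.58, 23 fragments). The peak of SLC30A1, the zinc exporter of the plasma membrane, lay upstream (4.39-fold, 2.73 to 6.73). The window of SLC30A7 (chr1:100895840-100896139, plus strand) has an ETS core at the start and under the peak.
SLC30A7: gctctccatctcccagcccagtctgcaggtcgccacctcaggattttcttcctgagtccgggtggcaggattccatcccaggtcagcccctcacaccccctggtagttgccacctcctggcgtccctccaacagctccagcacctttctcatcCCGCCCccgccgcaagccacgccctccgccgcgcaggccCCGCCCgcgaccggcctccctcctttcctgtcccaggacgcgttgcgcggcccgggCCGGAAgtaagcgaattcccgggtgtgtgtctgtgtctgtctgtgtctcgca

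Inorganic ion transporters had peaks of 3.38 to 5.69-fold. SLC8A2, a sodium and calcium exchanger, was highest, on chromosome 19 from 47447239 to 47447628 (5.69-fold, 3.34 to 9.15). The phosphate transporter SLC20A1 reached 4.85-fold and the sodium, potassium and chloride cotransporter SLC12A2 4.62-fold. SLC26A2, a sulphate transporter needed for cartilage, had a peak across its start on chromosome 5 from 149960455 to 149960764 (4.04-fold, 2.37 to 6.49). SLC9B2, of the sodium and proton exchanger families, was lowest (3.38-fold, 2.1 to 5.19). The intervals of these 5 genes overlapped. The window of SLC26A2 (chr5:149960508-149960807, plus strand) has an E-box 24 bp before the start, under the peak.
SLC26A2: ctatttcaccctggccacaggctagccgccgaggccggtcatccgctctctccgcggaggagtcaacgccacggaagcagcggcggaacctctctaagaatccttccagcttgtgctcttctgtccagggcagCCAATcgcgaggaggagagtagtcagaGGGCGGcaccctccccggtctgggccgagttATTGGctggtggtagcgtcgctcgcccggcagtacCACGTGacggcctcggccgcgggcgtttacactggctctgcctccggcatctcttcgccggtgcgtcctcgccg

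Among carriers of carboxylates and organic ions, SLC22A23 had 2 peaks on chromosome 6 that lay on either side of its start. The upstream one ran from 3457058 to 3457611 (5.58-fold, 3.38 to 8.75) and the one inside the gene from 3455628 to 3455926 (3.43-fold, 1.98 to 5.59), 1131 bp apart. SLC16A1, the lactate transporter MCT1, had a peak that spanned its start in the table, on chromosome 1 from 112956959 to 112957463 (3.06-fold, 1.91 to 4.70). SLC10A7 reached 5.04-fold, SLC22A17, a receptor for lipocalin, 4.68-fold, SLC16A10, which carries aromatic amino acids, 4.53-fold and the ergothioneine transporter SLC22A4 3.72-fold. Of 45 SLC genes with a peak, 2 (4.44%) had more than 1, against 7.63% of protein-coding genes with a peak.

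Sugar transporters were of middle to low rank. SLC50A1, the human member of the SWEET family, was highest, on chromosome 1 from 155136414 to 155136773 (4.75-fold, 2.79 to 7.63). The glucose transporter genes SLC2A8 (4.45-fold), SLC2A12 (3.78) and SLC2A13, which carries myo-inositol (3.51), followed, and none of the 4 reached a −log10 q of 5. SLC49A4, a lysosomal protein, led the vitamin and haem families on chromosome 3 from 122799508 to 122799801 (6.30-fold, 3.76 to 10.0, 16 fragments over 1.70). SLC19A1, the reduced folate carrier, was at 3.31-fold (2.09 to 5.03) and SLC44A5, a choline transporter-like gene, at 2.57-fold (1.72 to 3.73), the lowest SLC value. SLC33A1, which brings acetyl-CoA into the endoplasmic reticulum, had a peak on chromosome 3 from 155853860 to 155854221 (4.13-fold, 2.57 to 6.34) and SLC27A5, a liver bile acid and fatty acid ligase, one of 3.18-fold (2.02 to 4.78).

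SLC peaks lay mostly inside genes and near starts. By the table's classes, 30 of 47 lay inside the gene (63.8%, exact interval 48.5 to 77.3), 10 spanned the start (21.3%, 10.7 to 35.7) and 7 lay upstream (14.9%). None lay downstream, which allows a share of up to 7.55%. Peaks of other protein-coding genes were inside in 54.5%, across a start in 22%, upstream in 21.1% and downstream in 2.32%. Over all peaks with a gene, which include many genes without a symbol, 19.7% were across a start. Of the SLC peaks, 29 (61.7%, 46.4 to 75.5) began within 1000 bp of the start, against 55.7% of all peaks with a gene and 67.4% for other protein-coding genes. Among the 29 SLC peaks whose centre was within 1000 bp, 21 (72.4%) were centred downstream of the start, with a median of 254 bp. For other protein-coding genes the downstream share was also 72.4%. The centres of 8 SLC peaks were over 10000 bp from the start of the table, those of SLC6A6 (37288 bp), SLC30A10 (30634 and 29800 bp) and SLC8A2 (24734 bp) being the farthest.

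Some SLC peaks far from the start of the table lay close to another annotated start of the same gene. RefSeq promoter windows, 250 bp before to 50 bp after a start in GRCh38.p14, were at hand for 38 of the 45 genes and 40 of the peaks. Against the nearest RefSeq start, 30 of these 40 peaks (75%, 58.8 to 87.3) were centred within 1000 bp, compared with 24 (60%, 43.3 to 75.1) against the start of the table. For peaks of other protein-coding genes the same step moved the share from 70.3% to 72.0%, over 1753 peaks. The peak of SLC36A1 lay 10764 bp from the start of the table and 208 bp downstream of a second RefSeq start. The pair at SLC30A10 flanked a second start, with centres at 544 and −290 bp, minus being upstream, and the −290 bp peak also overlapped the promoter window of LOC107985281, a non-coding RNA gene. The peaks of SLC9B2 (9252 and 184 bp), SLC35A1 (2578 and 228 bp), SLC25A45 (1306 and 252 bp) and SLC50A1 (1250 and 742 bp) also moved to within 1000 bp. Of the 8 peaks over 10000 bp from the start of the table, those of SLC8A2 (24460 bp), SLC43A1 (14898 bp) and SLC19A1 (7060 bp) were over 1000 bp from every RefSeq start in the table of windows, and SLC6A6 and SLC35F1 had no window. SLC22A23 could not be read this way: the table of promoter windows held for it only an inner start, −133184 bp from the upstream peak, although its RefSeq span ends at 3457050, next to that peak. The peak of SLC19A1, at −11387 bp and upstream of the gene in the table, fell inside its RefSeq span. That of SLC16A1 spanned the start in the table and fell outside the RefSeq span.

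**Figure D4:**
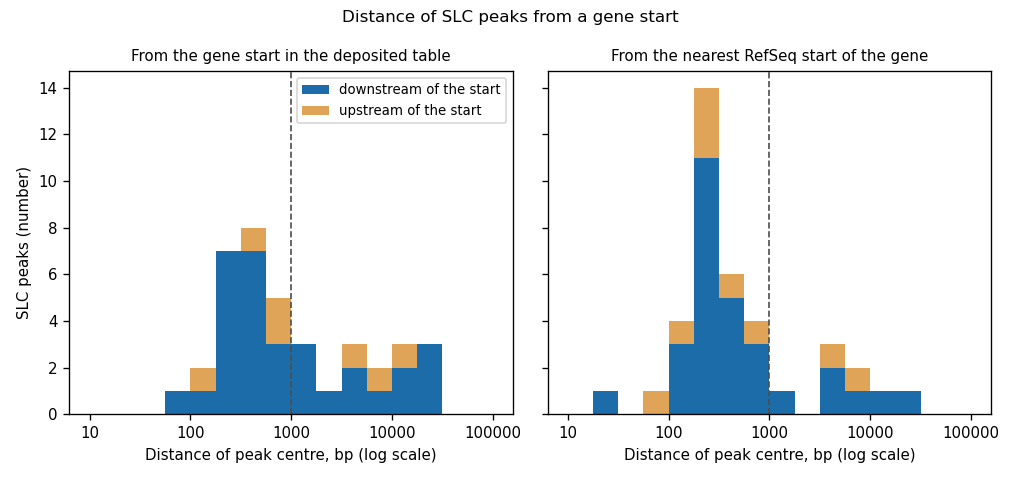
Number of SLC peaks (vertical axis) by distance of the peak centre from a gene start in bp (horizontal axis, log scale), from the start in the deposited table (left) and from the nearest RefSeq start (right), for peaks of genes with a RefSeq start other than SLC22A23. Most peaks are centred downstream of the start (blue) and within 1000 bp of it (dashed line), and the number beyond that line is smaller on the right.

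RefSeq promoter windows of 29 SLC genes had a start within 1000 bp of the peak centre, and 20 of the 40 SLC peaks overlapped such a window. They were searched on both strands for 10 short motifs. Neither MECOM motif, GACAAGATA for the first set of fingers or GAAGATGAG for the second, was found in the 29 windows. These letters were rare elsewhere too, in 0.0968% and 0.347% of all 35116 windows. The GATA site AGATAA, which the first MECOM motif can overlap, was in 0 of 29 SLC windows (up to 11.9%), 4.27% of the 1264 protein-coding windows that a peak overlapped and 10.3% of all windows. The amino acid response core TGATGNAA was also in 0 of 29, against 0.949% of the protein-coding windows with a peak and 3.62% of all windows. These absences say only that the letters are not in these windows.

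The E-box CACGTG, recognised by MYC, USF and TFEB family factors, was in 8 of the 29 windows (27.6%, exact interval 12.7 to 47.2). It was in 8.39% of the protein-coding windows with a peak, 9.34% of 364 windows of SLC genes without a peak and 7.26% of all windows. The 8 genes were SLC35E3, SLC36A1, SLC35A4, SLC26A2, SLC25A51, SLC22A4, SLC20A1 and SLC2A13. Of their 9 matches 4 lay wholly inside the peak, those of SLC35E3, SLC26A2, SLC25A51 and SLC22A4. The ETS core CCGGAA was in 8 of 29 (27.6%), 27% of protein-coding windows with a peak and 17.2% of all windows. The GC box GGGCGG, bound by SP and KLF factors, was in 23 of 29 (79.3%), 74.5% and 45% of the same sets. The CCAAT box, CCAAT, was in 13 of 29 (44.8%), 31.3% and 34.6% of them. The AP-1 site TGANTCA was in 1 window, that of SLC2A12, and the cAMP response element TGACGTCA in 1, that of SLC35F5. SLC windows had a median GC content of 67.0%, close to the 66.3% of protein-coding windows with a peak and above the 58.7% of all windows. The part of base composition in these shares was not tested, and windows of 1 gene can overlap in the larger sets.

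**Figure D5:**
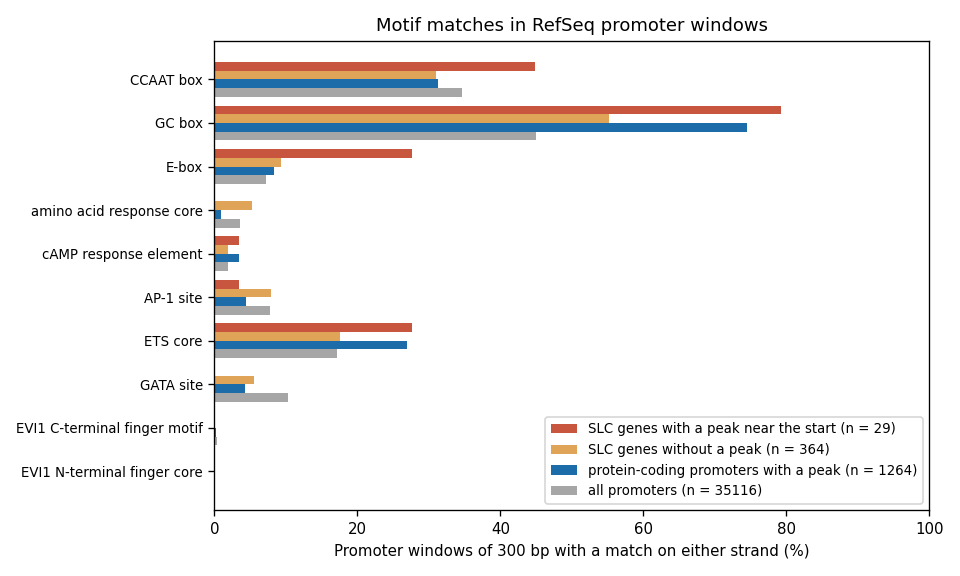
Share of RefSeq promoter windows of 300 bp (horizontal axis, percent) with a match on either strand to each of 10 motifs, in 4 sets of windows. Windows of SLC genes with a near peak were chosen by the distance of the peak centre, and protein-coding windows with a peak by overlap. The E-box bar of SLC genes with a near peak stands at 27.6%, against 7.26 to 9.34% in the other sets, and the 29 SLC windows have no match to the GATA site or the MECOM motifs.

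Some SLC peaks are shared with neighbouring genes. A peak in the span or promoter window of another protein-coding gene was found for 5 members. That of SLC27A5, centred at −7176 bp, overlapped a promoter window of ZBTB45, a zinc finger gene. Peaks of SLC25A45, SLC25A32 and SLC25A53 overlapped the spans of FRMD8, DCAF13 and FAM199X, and that of SLC35A4 overlapped a promoter window of a gene without a name symbol. Another 5 peaks overlapped a non-coding RNA gene, those of SLC16A1, SLC35A1 and SLC22A23 (both peaks) and the lower one of SLC30A10. Conversely, 17 peaks inside 15 SLC genes without a peak of their own were assigned to other genes, 10 of them to Ensembl genes without a symbol. They included SLC38A2, a glutamine transporter, on chromosome 12 (6.23-fold, 3.92 to 9.46), the metal importer genes SLC39A1 (4.92 and 2.89-fold) and SLC39A8 (5.30-fold), SLC2A9, a urate transporter (6.68-fold), and SLC5A6, a vitamin transporter, whose peak went to ATRAID (3.65-fold). SLC44A5 held 2 such peaks (5.92 and 4.86-fold), both higher than its own. With any overlap of the RefSeq span as the rule, 57 of 385 SLC genes held a peak (14.8%), against 11.4% of all protein-coding genes. These 2 shares were not standardised for gene length, and SLC genes were longer (median 35 against 24.1 kb).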

How the data were processed

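Per the labels' protocols, chromatin of HEK293T cells was cut with micrococcal nuclease, precipitated with an antibody to the AM tag and sequenced in paired-end mode. The submitters' processing notes list HOMER 4.10, ChIPseeker 1.18.0, MACS2 (2.1.1.20160309.6), Bowtie2 (2.4.2) and a pair of deepTools versions, without roles, and the build hg38. The deposited table has no header, so columns were identified from their values. It gives per peak a fold enrichment (a ratio), the −log10 of p and q, and a score. The score was deposited by the authors as the whole part of 10 times −log10 q and was not used further. The table's distance runs from the left end of a peak; centres were computed here.

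Fragments and background of each peak were solved from its deposited fold and −log10 p, within 0.001, for 3456 of 3462 peaks, SLC peaks all included (500 of 500 simulated peaks recovered). The other 6 have no interval. No source gives the reads per library. The background was held fixed in the exact 95% Poisson interval of each fold, and shares have exact binomial intervals; both cover counting error only.

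Members were taken by the deposited symbol (45 of 385), and the background genes were matched to RefSeq (GRCh38.p14) by Ensembl ID, then symbol, which for SLC genes gives 47 (12.2%). No exons were used. No test was run, since there is 1 library and genes are not replicates. Members, classes and motifs were chosen with earlier results of these data known. Named with values were the 10 highest peaks, peaks across a start, genes with more than 1 peak, the highest of each class, the 3 lowest and the 3 farthest genes. Of the 45 genes, 1 is counted in the totals but not reported here by name. Alternatives were stricter q or fold, other distances, gene spans, autosomes, the highest peak per gene and windows that the peak overlaps. Python 3.11.15, pandas 2.3.3, numpy 2.4.6, scipy 1.17.1 and matplotlib 3.10.9 were used.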

Additional observations from a re-analysis of the deposited data

How the results depend on the processing

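The share of SLC genes with a peak, 11.7%, was 4.94% at a −log10 q of at least 5 and 5.71% with fold at or above the median, settings that keep fewer peaks, and 16.1% with the gene span widened by 1000 bp. All protein-coding genes, at 9.94%, were at 5.52, 5.04 and 13.7%. The SLC share was thus lower at the stricter q and higher in the others. At the stricter q and fold, SLC genes were counted by listed symbol, without SLC35D4 and SLC61A1. All protein-coding genes were matched by Ensembl ID first, so those gaps are not like for like. None of these settings was standardised for gene length. The SLC share stayed within its interval in the 4 other settings (9.87 to 14.8%), of which matching by Ensembl ID was chosen after seeing the data. The median fold of 4.68 was 5.64 at the stricter q and 6.24 as fragments over background without the added 1, where all peaks had 5.58 and 6.32. The share near a start, 61.7%, was 38.3% within 500 bp and 83.0% within 10000 bp. The share across a start stayed inside its interval in 3 settings, and at the stricter q 7 of the 10 classes held a gene. The E-box was in 6 of 20 windows that a peak overlapped by at least 1 bp and in 5 of 14 at the stricter q. No paired analysis was possible because no group has a second library. The median of 18 fragments limits the ranking of SLC peaks.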
